A study of Homo sapiens with 8 samples.

Results

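Cell death in human cells runs through a small set of proteins whose genes are spliced in several ways. Exon use was described here for 9 of these genes, which were chosen by name: the initiator caspases CASP8, CASP2 and CASP9, the death receptor FAS, the caspase-8 regulator CFLAR, the BCL2-family genes MCL1, BCL2L1 and BAX, and the necroptosis effector MLKL. Skipped-exon events, each defined by a middle exon and the borders of the exons on either side, were listed for 8 of the 9 genes, among 13424 genes in all. They made up 66 of 82355 events in MCF10A and 56 of 98244 events in HMLE TWIST, which are 81 distinct events over 45 exons. BCL2L1 had no listed event in either line.

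The RNA came from MCF10A, a non-tumorigenic line of breast epithelial cells, and from HMLE TWIST, immortalised breast epithelial cells that overexpress the transcription factor TWIST from a retroviral vector, pBabe. In each line a control group was given DMSO, the solvent, and the other group was exposed to emetine at 10 µM over 24 hours. Each of the 4 groups held 2 libraries, which the design text calls biological replicates, and no other allele or agent is named. The series concerns regulators of splicing that act on RNA G-quadruplexes, and emetine is also known as an inhibitor of protein synthesis.

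Caspases are proteases that cut other proteins during apoptosis. Caspase-8 is switched on at death receptors such as FAS, where the CFLAR protein competes with it, and caspase-9 is switched on by cytochrome c that leaves mitochondria. BAX opens the mitochondrial membrane, and MCL1 and the long product of BCL2L1 hold it back. MLKL breaks the plasma membrane in necroptosis, a form of cell death that active caspase-8 restrains. Several of these genes are textbook cases of splicing that shortens or inverts a protein's function, among them CASP2, FAS, MCL1 and BCL2L1. The short form of the BCL2L1 product comes from an alternative 5′ splice site, a kind of event that a skipped-exon table does not list.

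Inclusion of an exon is given as a level from 0 (skipped in all reads) to 1 (included in all reads), corrected for the effective length of each form. A difference was taken as emetine minus DMSO, between the group means. Testing needed at least 20 junction reads in each library compared, and at least 10 reads of the rarer form over all of them. It was called changed where the adjusted p-value of a quasi-binomial model, moderated with limma, was under 0.05 and the difference was at least 0.1 in size. Of the members' events, 30 in 8 genes were tested in MCF10A and 23 in 7 genes in HMLE TWIST, covering 24 exons in at least 1 line.

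Under emetine, the members' changes lay in 3 genes, CASP2, CASP8 and MLKL. In both lines an exon of CASP2 and an exon of MLKL were included more, and neighbouring exons of CASP8 were included less. In MCF10A, 5 of the 30 tested events were called (16.7%), 2 higher and 3 lower, against 13.8% of all 25522 tested events (8.37% higher and 5.48% lower). In HMLE TWIST, 6 of 23 were called (26.1%), 3 higher and 3 lower, against 15.0% of all 30290 (6.66% higher and 8.32% lower). With limma on log2 odds 5 and 3 of the members' events were called, against 7.88% and 9.94% of all. The median absolute difference of the members was 0.0244 in MCF10A against 0.0239 over all tested events, and 0.0453 in HMLE TWIST against 0.0255. The share in MCF10A was thus near that of all events, and events of a gene share junction reads, so the counts are not independent. In these bulk samples a change of splicing within cells and a change in which cells or messages are present cannot be told apart.

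The sequences of the exons that changed in both lines are shown because their length and any stop codon they bring set the protein consequence. They run 5′ to 3′ on the strand of the gene and were read from GENCODE 29 transcripts whose exon and intron lengths match the events. Capitals mark the first in-frame stop codon that inclusion brings, and for CASP2 the run continues past the 61 nt exon to that codon.
CASP2 61 nt exon through the stop: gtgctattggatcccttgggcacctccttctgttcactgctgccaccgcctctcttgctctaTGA
MLKL 125 nt exon: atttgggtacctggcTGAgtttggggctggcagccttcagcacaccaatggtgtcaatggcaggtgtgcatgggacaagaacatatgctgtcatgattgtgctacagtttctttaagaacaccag
CASP8 45 nt exon: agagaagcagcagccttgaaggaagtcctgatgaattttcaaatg
CASP8 65 nt exon: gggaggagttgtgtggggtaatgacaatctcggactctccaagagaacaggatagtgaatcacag
Of these, only the 45 nt exon of CASP8 has a length divisible by 3.

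CASP8 (ENSG00000064012.21, plus strand of chromosome 2) gave 17 events in MCF10A and 10 in HMLE TWIST. Its 45 nt exon (GRCh37 chr2:202137621-202137665) lies between the exon that ends at 202137499 and the 65 nt exon (chr2:202139612-202139676), which is followed by a 142 nt exon that begins at 202141550. In the event that joins the 45 nt exon to the 65 nt exon, the inclusion level in MCF10A was 0.860 and 0.877 in DMSO and 0.659 and 0.629 under emetine. The HMLE TWIST levels were 0.659 and 0.713 in DMSO and 0.336 and 0.455 under emetine. Both emetine libraries lay below both DMSO libraries in each line. The means went from 0.868 ± 0.0123 to 0.644 ± 0.0211 in MCF10A (SD, n = 2), a difference of -0.224 (quasi-binomial adjusted p = 2.46e-08, limma on log2 odds 0.0401). In HMLE TWIST they went from 0.686 ± 0.0385 to 0.396 ± 0.0844, a difference of -0.290 (quasi-binomial adjusted p = 1.31e-05, limma 0.0588, so that this call was lost with limma). The smallest library had 106 reads for this event.

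Seen against a direct joining to the 142 nt exon, the same 45 nt exon also fell in both lines. Its level in MCF10A was 0.951 and 0.943 in DMSO and 0.533 and 0.445 under emetine, a difference of -0.458 (quasi-binomial adjusted p = 2.50e-15, limma 0.0145). The HMLE TWIST libraries had 0.949 and 0.852 in DMSO and 0.309 and 0.252 under emetine, a difference of -0.621 (quasi-binomial adjusted p = 1.52e-10, limma 0.0150). The smallest library had 52 reads here, and the groups did not overlap in either line.

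With the same skipping reads as the event above, so not independently, the 65 nt exon of CASP8 fell in both lines. Its level in MCF10A was 0.977 in each DMSO library and 0.747 and 0.701 under emetine, which is a difference of -0.253 (quasi-binomial adjusted p = 2.65e-15, limma 0.0145). For HMLE TWIST it was 0.983 and 0.934 in DMSO and 0.705 and 0.688 under emetine, a difference of -0.262 (quasi-binomial adjusted p = 4.92e-08, limma 0.0320). With the 45 nt exon before it and the 142 nt exon after it, the 65 nt exon went from 0.991 to 0.940 in MCF10A, a difference of -0.0513 (quasi-binomial adjusted p = 0.00183, limma 0.0610) that is under 0.1 in size. In HMLE TWIST the means were 0.987 and 0.941 (quasi-binomial adjusted p = 0.0934). The 142 nt exon had mean levels of 0.916 or more in its 3 events and no call. With the 45 nt exon directly before it, its level in HMLE TWIST was 0.917 and 0.916 in DMSO and 0.989 and 1 under emetine, a difference of 0.0781 (quasi-binomial adjusted p = 0.0389, limma 0.0194).

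Because these events share a 5′ splice site, the reads leaving the exon that ends at 202137499 were also taken as 1 set and divided by the exon they joined. In MCF10A, the share that joined the 45 nt exon was 72.7% and 73.1% in DMSO and 35.1% and 32.6% under emetine. The share that joined the 142 nt exon directly, leaving out both shorter exons, was 2.60% and 3.21% in DMSO and 24.7% and 33.2% under emetine. In counts, the direct junction had 6 and 5 of 231 and 156 reads in DMSO and 48 and 64 of 194 and 193 reads under emetine.

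By this measure HMLE TWIST cells started from a lower use of the 45 nt exon. There 46.2% and 52.8% of the reads from this site joined it in DMSO, against 17.0% and 13.0% under emetine. The direct junction to the 142 nt exon took 1.71% and 6.74% in DMSO and 33.3% and 35.0% under emetine, or 2 and 6 of 117 and 89 reads against 45 and 35 of 135 and 100. The Wilson 95% intervals of that share, which cover counting error only, were 0.470 to 6.02% and 3.13 to 13.9% in DMSO and 25.9 to 41.6% and 26.4 to 44.7% under emetine. Joining to the 65 nt exon went from 21.7 ± 0.106% to 34.1 ± 1.34% (SD, n = 2) in MCF10A, and the HMLE TWIST shares were 42.3 ± 9.02% and 48.8 ± 1.15%. The shares were not tested apart from the events they come from.

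**Figure D1:**
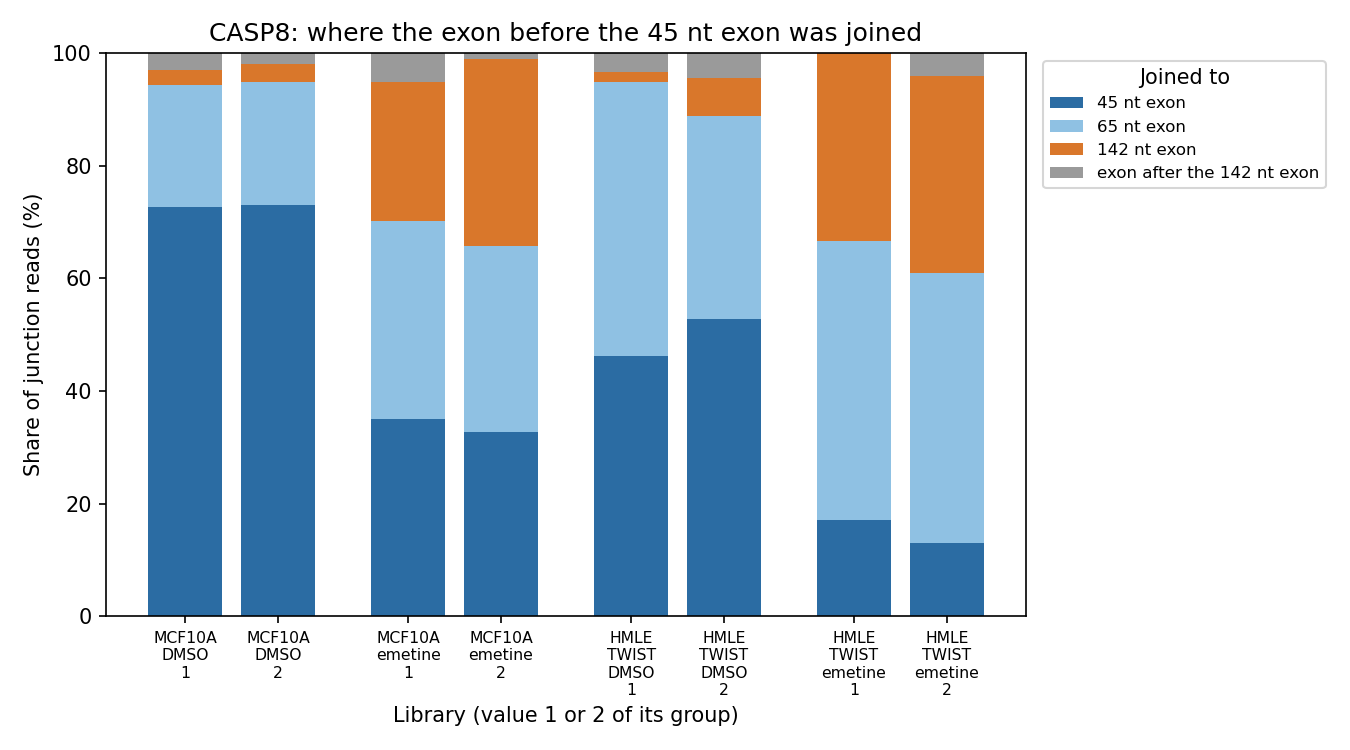
Stacked bars give, for each of the 8 libraries (x axis), the share in percent of the junction reads that leave the CASP8 exon before the 45 nt exon, by the exon they join (colours). In both lines the share joined directly to the 142 nt exon is under 7% in each DMSO library and above 24% in each emetine library.

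The sides of the 45 nt exon were not equally covered. With DMSO in MCF10A, 168 and 114 reads entered it from the preceding exon and 274 and 236 left it for the 65 nt exon. Under emetine the counts were 68 and 63 in and 122 and 94 out. In HMLE TWIST they were 54 and 47 in and 105 and 68 out in DMSO, and 23 and 13 in and 26 and 45 out under emetine. The inclusion level averages both sides, whereas the shares of the 5′ splice site use the entering side alone, and the level was lower under emetine in both measures.

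Both CASP8 exons lie before the part of the message that encodes the protease domain. Leaving the 45 nt exon out of the transcript CASP8-205 shortens the open reading frame from 538 to 523 amino acids and keeps the frame. Leaving the 65 nt exon out of CASP8-202, which lacks the 45 nt exon already, shortens it from 496 to 252 amino acids and puts the stop codon 531 nt before the last exon junction. That last form carries the direct junction to the 142 nt exon, which is also found in CASP8-210 and CASP8-216, both listed by GENCODE 29 as protein coding. The frames are computed from transcript sequence, and no protein was measured.

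CASP2 (ENSG00000106144.19, plus strand of chromosome 7) had the largest rise of the members' events in both lines. Its 61 nt exon (GRCh37 chr7:142997473-142997533) was mostly skipped in DMSO, with levels of 0.0963 and 0.143 in MCF10A and 0.0885 and 0.138 in HMLE TWIST. Under emetine the levels were 0.813 and 0.735 in MCF10A and 0.551 and 0.515 in HMLE TWIST. Every emetine library lay above both DMSO libraries of its line.

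The mean of the 61 nt exon went from 0.120 ± 0.0331 to 0.774 ± 0.0556 in MCF10A (SD, n = 2), a difference of 0.654 (quasi-binomial adjusted p = 6.12e-39, limma 0.0145). In HMLE TWIST it went from 0.113 ± 0.0353 to 0.533 ± 0.0254, a difference of 0.419 (quasi-binomial adjusted p = 6.89e-27, limma 0.0163). In MCF10A the skipping reads numbered 111 and 138 in DMSO and 30 and 40 under emetine, while inclusion reads numbered 19 and 37 against 210 and 178. In HMLE TWIST the skipping reads were 154 and 128 in DMSO and 130 and 210 under emetine, and inclusion reads were 24 and 33 against 256 and 358. Skipping reads were therefore fewer under emetine in MCF10A but not in HMLE TWIST. The tables hold no expression level for the whole gene, so these counts are not scaled to depth.

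The rise of the CASP2 exon in HMLE TWIST was 0.235 smaller than that in MCF10A, a difference of response that did not pass the test (quasi-binomial adjusted p = 0.0763, limma 0.450). That test compares the responses on log odds and not on the inclusion level. Over the alternatives the adjusted p ran from 0.0484, without the second MCF10A emetine library, to 0.540, without the second HMLE TWIST control library. The untreated lines differed by -0.0063 (quasi-binomial adjusted p = 0.858).

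Inclusion of this exon is the known source of the short caspase-2 product, CASP-2S, and skipping gives the long protease. In CASP2-201, in which the exon is skipped, the open reading frame is 452 amino acids long. With the 61 nt exon added it is 343, the TGA printed above being completed 4 nt after the exon ends, 256 nt before the last exon junction. GENCODE 29 holds the inclusion form only in CASP2-206, a processed transcript with no annotated frame, and the skipping form in CASP2-201, CASP2-202 and CASP2-207. Of the other CASP2 exons tested, that of 110 nt went from 0.997 to 0.956 in HMLE TWIST (quasi-binomial adjusted p = 0.0107), a difference of -0.0406 that is under 0.1 in size. That of 129 nt, tested in MCF10A, was at 0.944 and 0.959 (quasi-binomial adjusted p = 0.759).

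**Figure D2:**
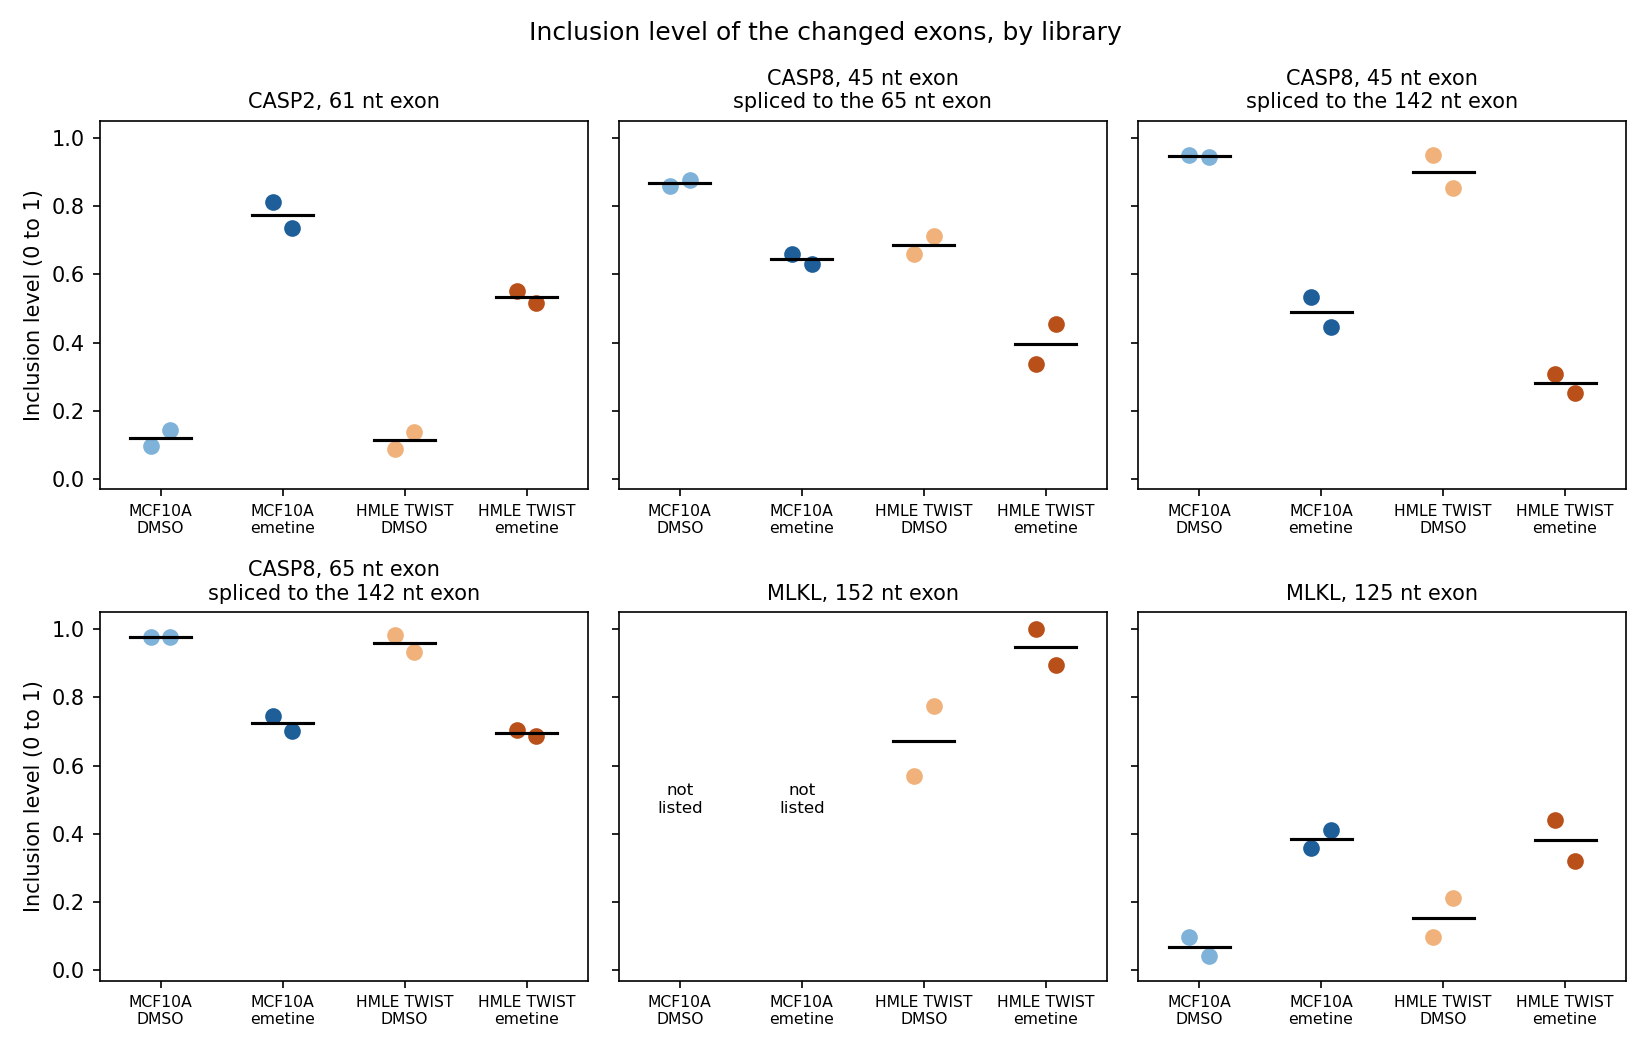
Each panel shows 1 of the 6 events called under emetine, with the inclusion level from 0 to 1 on the y axis and the 4 groups on the x axis. Points are libraries and bars are means of 2. The CASP2 exon and the 125 nt MLKL exon are higher under emetine in both lines, the CASP8 events are lower, and the 152 nt MLKL event is listed in HMLE TWIST only.

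CASP9 (ENSG00000132906.17, chromosome 1) had no call. Of its 7 events in MCF10A and 10 in HMLE TWIST only 1 met the main read minimums. It was that of a 35 nt exon in MCF10A, at 0.989 in both DMSO and emetine (quasi-binomial adjusted p = 0.977). The known short form of caspase-9, which opposes the full protease, leaves out several exons together. The junction that leaves out the 148, 90, 177 and 35 nt exons at once, from 15821947 to 15844605 in GRCh37, had 7 and 30 reads in DMSO and 15 and 11 under emetine in MCF10A. In HMLE TWIST it had 21 and 22 reads in DMSO and 17 and 19 under emetine. The listed events that use this junction were under the read minimum, so no test of it was made.

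FAS (ENSG00000026103.19, plus strand of chromosome 10) is the member whose skipped exon decides between a membrane receptor and a soluble one. Its 63 nt exon (GRCh37 chr10:90770510-90770572) encodes the transmembrane segment, and its sequence is shown for that reason.
FAS 63 nt exon: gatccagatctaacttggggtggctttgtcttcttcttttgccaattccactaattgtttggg
Skipping keeps the frame and takes the product of FAS-204 from 335 to 314 amino acids. The level in MCF10A was 0.930 and 0.923 in DMSO and 0.957 and 0.970 under emetine, a difference of 0.0367 (quasi-binomial adjusted p = 0.0380, limma 0.136). For HMLE TWIST the level was 0.886 and 0.852 in DMSO and 0.937 and 0.932 under emetine, a difference of 0.0656 (quasi-binomial adjusted p = 0.0764, limma 0.123). Neither is a call, since the first is under 0.1 in size and the second misses both thresholds. The membrane form was the main one in all 8 libraries. In their tested events the 25, 83 and 138 nt exons of FAS had mean levels of 0.932 or more in every group.

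CFLAR (ENSG00000003402.19, chromosome 2), whose protein resembles caspase-8 but lacks protease activity, had no call. Its 55 nt exon (GRCh37 chr2:202010101-202010155) was at 0.990 and 0.992 in MCF10A with DMSO and at 0.939 and 0.925 under emetine, a difference of -0.0588 (quasi-binomial adjusted p = 0.0196, limma 0.0249). In HMLE TWIST it was at 0.979 and 1 in DMSO and 0.977 and 0.937 under emetine, a difference of -0.0328 (quasi-binomial adjusted p = 0.228). The groups overlapped in neither line, but both differences are under 0.1 in size. Skipping would shorten the frame of CFLAR-201 from 480 to 205 amino acids. The 418 nt exon, in its best covered event, had mean levels from 0.955 to 0.991, and a 118 nt exon had group means of 0.00461 or less.

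MCL1 (ENSG00000143384.12, minus strand of chromosome 1) has a single listed event. Its 248 nt middle exon (GRCh37 chr1:150550720-150550967) separates the long form, which protects cells, from the short form MCL-1S, which lacks this exon and promotes death. The exon was at 0.991 to 0.998 in the 8 libraries. The DMSO and emetine groups differed by 0.00162 in MCF10A and by -0.00211 in HMLE TWIST (quasi-binomial adjusted p = 0.251 and 0.486). With at least 2219 reads in each library this was the best covered tested event of the members. Skipping of the MCL1 exon was seen in 33 and 27 reads with DMSO and in 10 and 8 with emetine in MCF10A, and in 3 and 8 against 10 and 4 in HMLE TWIST. Skipping takes the frame from 350 to 271 amino acids.

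BAX (ENSG00000087088.19, plus strand of chromosome 19) had small differences and no call under emetine. A 98 nt exon (GRCh37 chr19:49463496-49463593), whose inclusion GENCODE 29 lists only in BAX-204, a transcript marked for nonsense-mediated decay, was at 0.0136 and 0.00952 in MCF10A with DMSO and at 0.0323 and 0.0380 under emetine. The difference was 0.0236 (quasi-binomial adjusted p = 1.78e-10, limma 0.0604). In HMLE TWIST the levels were 0.0177 and 0.0119 in DMSO and 0.0264 and 0.0194 under emetine, a difference of 0.00808 (quasi-binomial adjusted p = 0.00480, limma 0.356). The groups did not overlap in either line. Both differences are far under 0.1, and the adjusted p-values rest on at least 1402 reads per library. Added to BAX-201, the exon takes the frame from 218 to 164 amino acids, with the stop codon in the last exon.

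The 147 nt BAX exon (GRCh37 chr19:49458944-49459090) was at 0.930 and 0.926 in MCF10A with DMSO and at 0.959 and 0.979 under emetine. The difference was 0.0406 (quasi-binomial adjusted p = 7.30e-06, limma 0.132), which limma did not pass and which is under 0.1 in size. In HMLE TWIST the exon was at 0.948 and 0.965 in DMSO and at 0.963 and 0.972 under emetine (quasi-binomial adjusted p = 0.0995, limma 0.507). It holds whole codons and takes BAX-201 from 218 to 169 amino acids when skipped. The 52 nt exon before it (chr19:49458805-49458856) was called lower in untreated HMLE TWIST than in untreated MCF10A in 1 of its events. In its best covered event, with at least 740 reads, the untreated means were 0.968 and 0.989, a difference of -0.0205 that is under 0.1 in size. In the event that skips to the exon starting at 49459455, with at least 155 reads, its level was 0.913 and 0.964 in the MCF10A controls and 0.849 and 0.780 in the HMLE TWIST controls. That is a difference of -0.124 (quasi-binomial adjusted p = 1.22e-04, limma 0.207), which limma did not call. Without the second control library of either line the difference fell under 0.1, to -0.0986 (MCF10A) and -0.0893 (HMLE TWIST). Under emetine this event differed by -0.0657 in MCF10A and -0.0668 in HMLE TWIST (quasi-binomial adjusted p = 0.0699 and 0.0761).

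MLKL (ENSG00000168404.12, minus strand of chromosome 16) gained an exon that carries an early stop. The 125 nt exon (GRCh37 chr16:74710199-74710323) lies between an 82 nt and a 152 nt exon, and the stop codon in capitals above begins at its position 16. The level in MCF10A was 0.0979 and 0.0412 in DMSO and 0.358 and 0.410 under emetine, means of 0.0695 ± 0.0401 and 0.384 ± 0.0369 (SD, n = 2). The difference was 0.315 (quasi-binomial adjusted p = 2.41e-38, limma 0.0315). In HMLE TWIST the level was 0.0968 and 0.212 in DMSO and 0.439 and 0.322 under emetine, a difference of 0.226 (quasi-binomial adjusted p = 0.00271, limma 0.0991).

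In both lines the DMSO and emetine libraries of this MLKL exon did not overlap, but HMLE TWIST had only 40 to 95 reads per library against at least 342 in MCF10A. There the call was lost with limma. It was also lost without the first control library (difference 0.168, quasi-binomial adjusted p = 0.203) or without the first emetine library (0.167, adjusted p = 0.0562). Both junctions of the exon moved the same way. In MCF10A, 25 and 19 reads entered it and 36 and 12 left it in DMSO, against 125 and 116 entering and 134 and 136 leaving under emetine. In HMLE TWIST 4 and 6 entered and 5 and 8 left in DMSO, against 17 and 22 entering and 41 and 15 leaving under emetine.

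With the 125 nt exon the open reading frame of MLKL-202 ends after 351 amino acids in place of 471, with the stop codon 450 nt before the last exon junction. GENCODE 29 lists inclusion only in MLKL-204, which it marks for nonsense-mediated decay. Whether this annotation bears on the rise was not tested, as the tables hold no measure of RNA stability.

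A second MLKL event was called in HMLE TWIST. The 152 nt exon (GRCh37 chr16:74709511-74709662), set against a junction that also leaves out the 82 nt exon, was at 0.570 and 0.774 in DMSO and at 1 and 0.895 under emetine. The difference was 0.275 (quasi-binomial adjusted p = 0.00204, limma 0.0948), and the call was lost without the first control library (0.173, adjusted p = 0.169) or the first emetine library (0.223, adjusted p = 0.0588). The skipping junction had 20 and 7 reads in DMSO and 0 and 4 under emetine. In the other event of this exon, which skips it alone and had at least 73 reads in HMLE TWIST, the level there was 1 in both DMSO libraries and 0.961 and 0.980 under emetine, and too few skipping reads were seen to test it. The called event was not listed in MCF10A, and no GENCODE 29 transcript matched it. The 82, 90 and 136 nt exons of MLKL had mean levels of 0.841 or more and no call.

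Between the lines, no event of the members was called different in its response to emetine, which does not show that the responses were equal. Of 29 events tested for the term of line by treatment, 0 were called, against 1.88% of all 31825. With limma the count was also 0, against 0.00% of all events, among which its lowest adjusted p was 0.197. The 98 nt exon of BAX had the lowest adjusted p (quasi-binomial 0.0491), with a difference of response of -0.0155. Of the 21 events tested in both lines, 18 had differences of the same sign, and the 5 called in both were among them. Some of these events share junction reads, and the same counts were not made over all events, so they set the members apart from nothing. For the 45 nt exon of CASP8 the difference of response was -0.0663 against the 65 nt exon and -0.162 against the 142 nt exon (quasi-binomial adjusted p = 0.986 and 0.991). These p-values test the term on log odds, which can part from a difference of levels where starting levels differ.

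**Figure D3:**
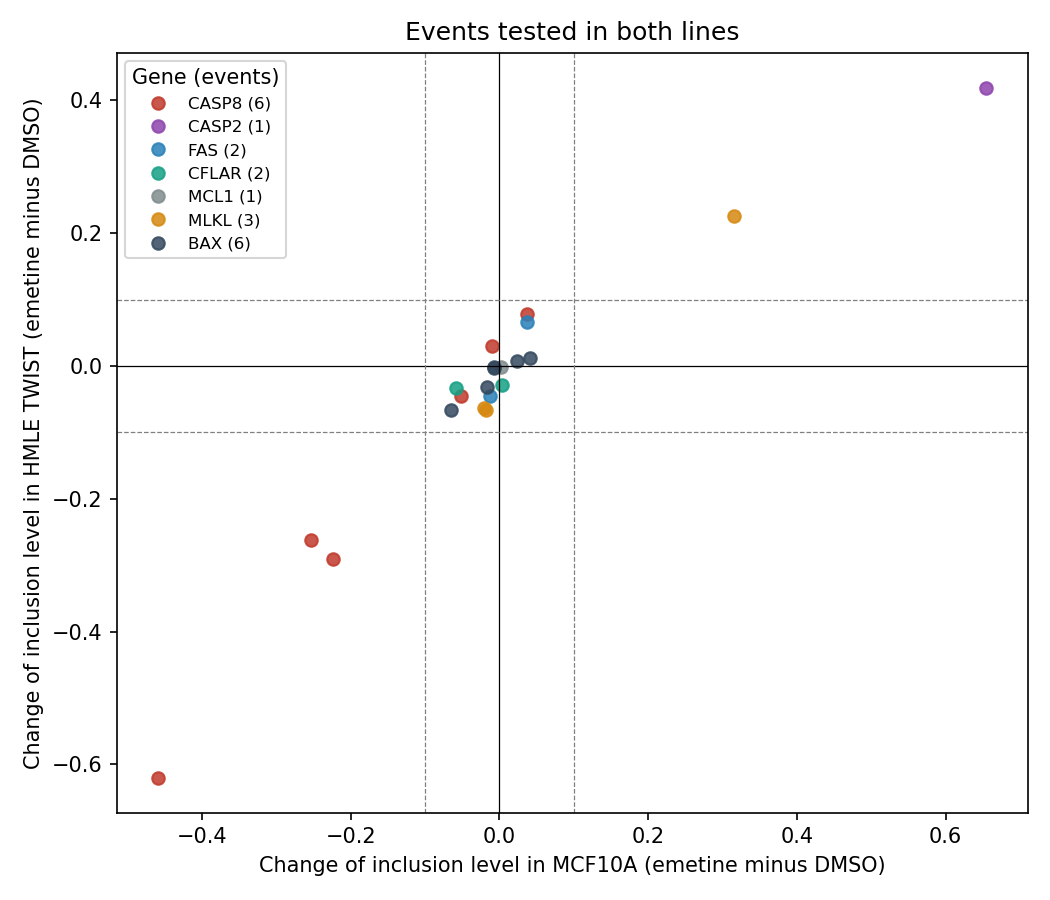
Points are the 21 events tested in both lines, coloured by gene, with the emetine minus DMSO difference of inclusion level in MCF10A on the x axis and in HMLE TWIST on the y axis. Dashed lines mark a difference of 0.1 in either direction. The 5 events called in both lines lie outside the dashed lines in the same direction.

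In the untreated cells, 2 of 21 events were called (9.52%), both lower in HMLE TWIST, against 6.62% of all 19301 (4.45% lower). With limma 0 were called, against 0.187% of all. They were the BAX event above and the 45 nt exon of CASP8, with means of 0.868 in MCF10A and 0.686 in HMLE TWIST when joined to the 65 nt exon. That difference of -0.182 (quasi-binomial adjusted p = 4.44e-05) was not called by limma (0.164) and was lost without the first HMLE TWIST control library (-0.155, adjusted p = 0.0604). The line and everything that goes with it cannot be told apart here.

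Many events of the members had almost a single form. In MCF10A, 30 events had the reads but too few of the rarer form to be tested. Of these, 29 were at 0.9 or more in every library, the lowest level being 0.976. In HMLE TWIST there were 28 such events, 26 of them at 0.9 or more with a lowest level of 0.920. Another 6 and 5 events were under the read minimum, none of them at 0.9 or more in every library. They were left out of the main test, but reads of some enter the junction counts given above for CASP9, CASP8 and MLKL.

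**Figure D4:**
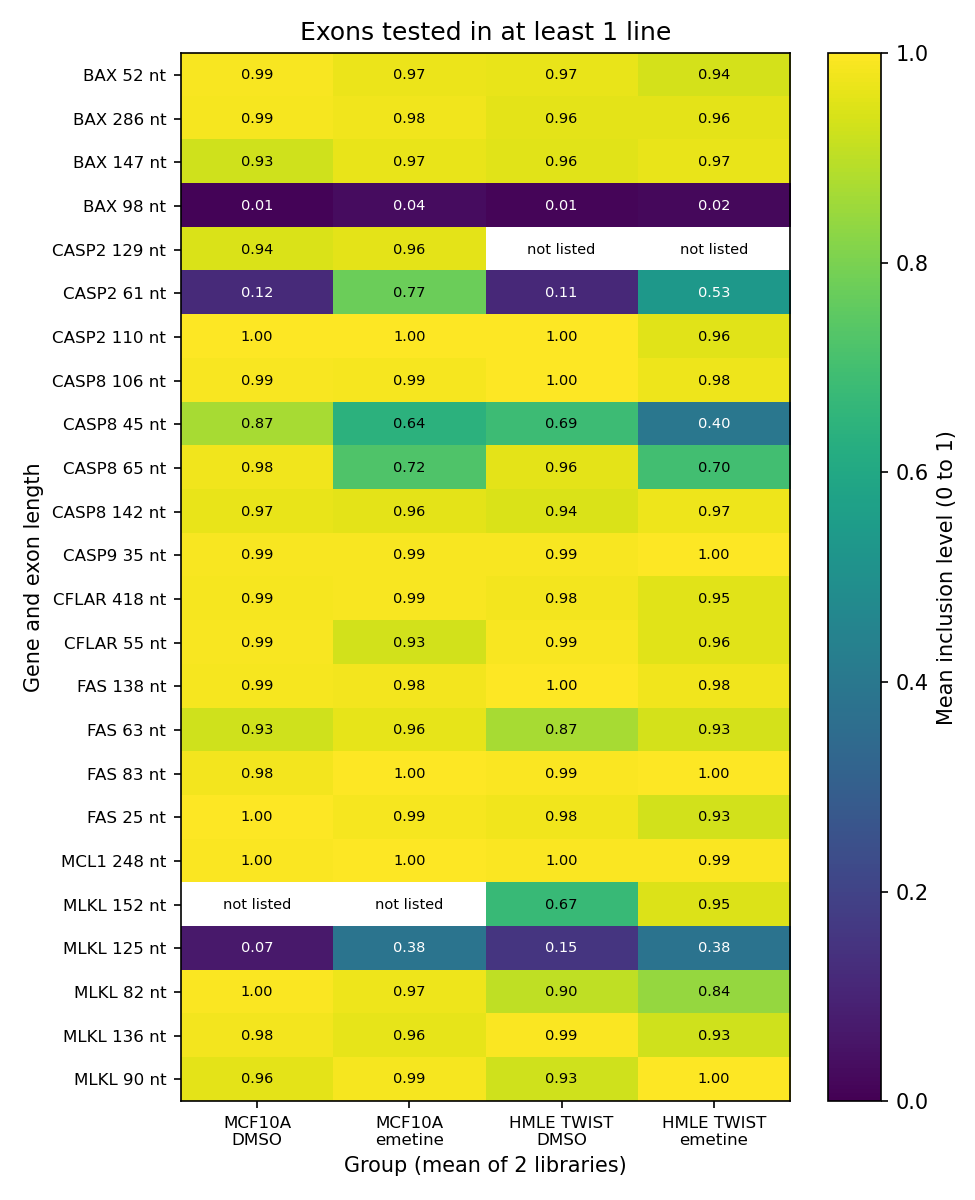
Rows are the 24 exons tested in at least 1 line, each by its best covered tested event and labelled by gene and length, columns are the 4 groups, and the colour and number in each cell give the mean inclusion level from 0 to 1. Most exons stay above 0.9 in every group. The 61 nt CASP2 exon, the 125 nt MLKL exon and the 45 and 65 nt CASP8 exons change by at least 0.2 between DMSO and emetine in both lines. The 152 nt MLKL event, listed in HMLE TWIST only, changes by 0.275.

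Other cell death genes were given by a list of 53 symbols drawn up by role, of which 46 were listed and 35 were tested in each line. In MCF10A 16 of their 97 tested events were called (16.5%), 7 higher and 9 lower, and in HMLE TWIST 17 of 93 (18.3%), 6 higher and 11 lower, against the shares of all events given above. The largest rises were in BIRC5, which encodes the apoptosis inhibitor survivin, and CYLD, a deubiquitinase that acts downstream of the tumour necrosis factor receptor. The 165 nt exon of BIRC5 was at 0.151 in DMSO and 0.772 under emetine in MCF10A, and at 0.122 and 0.431 in HMLE TWIST, in an event with as few as 80 reads. In another event of this BIRC5 exon, with at least 1479 reads, it was at 0.0106 and 0.224 in MCF10A and at 0.0138 and 0.136 in HMLE TWIST, so the exon was a minor form there. The 137 nt exon of CYLD was at 0.108 and 0.581 in MCF10A and at 0.145 and 0.709 in HMLE TWIST.

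The largest fall in each line was in TNFRSF1A, the receptor for tumour necrosis factor, whose 74 nt exon went from 0.932 to 0.653 in MCF10A and, in another event of the exon, from 0.853 to 0.230 in HMLE TWIST. A 106 nt exon of the decoy receptor gene TNFRSF10C fell by 0.224 in MCF10A, and a 77 nt exon of the executioner caspase gene CASP6 went from 0.986 to 0.760 in HMLE TWIST and from 0.992 to 0.844 in MCF10A. The 129 nt exon of APAF1, the scaffold that activates caspase-9, differed by -0.198 in MCF10A and by 0.202 in HMLE TWIST (quasi-binomial adjusted p = 0.00290 and 1.92e-04), and limma called neither (0.111 and 0.104). This gene was chosen after its values were seen.

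Junction reads summed over events, some of which share reads, came to 78412292 to 91259363 per library. The median reads per event were higher under emetine, at 274 to 308, than in DMSO, at 202 to 234, and the part of this in the results was not tested. Replicates differed by more than counting error, with a mean chi-square per event from 1.60 to 1.66, where 1 is sampling noise alone. Of 10 epithelial marker genes 6 were listed in MCF10A and 4 in HMLE TWIST, where none had an event above 32 reads in DMSO or 67 under emetine. All 9 mesenchymal markers were listed in HMLE TWIST and 6 in MCF10A. In MCF10A with DMSO the largest event had 53219 reads for VIM, 3066 for SPARC and 595 for FN1. For TWIST1, ZEB1 and ZEB2 it had 19, 9 and 8. Leukocyte and endothelial markers were not listed, except PTPRC in HMLE TWIST with 2 reads. These are junction reads in skipped-exon events and not expression levels.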

How the data were processed

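The deposited data are a skipped-exon table in rMATS format for each line, with GRCh37 and STAR 2.5.3a named in the submitters' processing notes. The rMATS version and annotation are not given in the sources used here. Per the file headers, the authors' counts are the junction reads that support inclusion or skipping, with both replicates of a group in 1 cell. The authors' p-value, false discovery rate and difference score for each event, per the file headers, were used only as an alternative. Sample 1 was read as DMSO and sample 2 as emetine because the table names give that order, and the first value of a cell as replicate 1. Neither could be checked from the values.

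The inclusion level is the inclusion count over its effective length (100 to 198), divided by itself plus the skipping count over the effective length of that form (99). Each event was fitted with a quasi-binomial logistic model in R 4.3.3. Its dispersion was moderated over all tested events with limma 3.58.1 and not allowed under 1, and the two-sided p-values received a Benjamini-Hochberg adjustment across all tested events of the comparison. The moderated dispersion was the same for every event, so very small adjusted p-values should be read beside those of limma on log2 odds, with 0.5 added to each count. Libraries of a group with only inclusion or only skipping reads were left out of the residual degrees of freedom, a choice made after the data were seen. The models were also run on simulated data in which every event had the same dispersion. That run cannot show how they perform where the dispersion differs between events.

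All 9 genes were matched by symbol. Values per library are given for exons with a called event and for those of known protein consequence, for each called event whichever it is. Otherwise an exon is represented by its best covered tested event. From the other cell death genes the 4 largest called differences in each line are named, and APAF1 was added after its values were seen. The members and lists were chosen with earlier results of these data known. Alternatives were limma, other read minimums, other dispersions, no length correction, a larger difference, a replicate block, the deposited statistics and leaving out each library. Transcripts and frames come from GENCODE 29 (GRCh38), matched by gene identifier and by exon and intron lengths, with no conversion of coordinates, and coordinates printed are those of the deposited tables, with starts counted from 1.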

Additional observations from a re-analysis of the deposited data

How the results depend on the processing

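The count of the members' events called in MCF10A was 5 under every alternative run. In HMLE TWIST it was 6, with limma 3, and with at least 50 reads per library 5. Without each library in turn it ran from 4 to 6. Over all events the calls also moved, in MCF10A from 3533 of 25522 to 2888 of 22735 with at least 50 reads. In HMLE TWIST they went from 4539 of 30290 to 3696 of 26914. Among the members, the difference of response was called for 0 events, or 0 to 1 without a library, the exception being the CASP2 exon. Between untreated lines 2 events were called, 0 with limma or with a difference of at least 0.2, 1 without length correction, and 1 to 3 without a library. Of the other cell death genes, 16 events were called in MCF10A and 17 in HMLE TWIST, with limma 11 in each, with a difference of at least 0.2 6 and 5, and without a library 11 to 17 and 13 to 17. No called difference of the members changed sign under the alternatives run. A replicate block left the counts at 5, 6, 0 and 2 for the members and at 16 and 17 for the list. Same-numbered replicates deviated together with a correlation of 0.00425 in MCF10A and 0.00925 in HMLE TWIST, so the numbers are not shown to pair the libraries.

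Depth limits the rarer forms. The HMLE TWIST libraries had as few as 40 reads for the 125 nt exon of MLKL and 52 for the 45 nt exon of CASP8 against the 142 nt exon, and most exons near 1 had too few skipping reads to test. With 2 libraries per group the SD of a mean is itself poorly known. The tables give skipped-exon junctions only, so alternative splice sites and gene expression were not analysed here.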
